A study of Tupaia belangeri with 6 samples.

Results

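A group of 10 genes used to recognise young neurons was followed through the hippocampus of tree shrews (TSs, Tupaia belangeri): DCX, SOX4, SOX11, IGFBPL1, STMN1, STMN2, TUBB3, DPYSL3, NEUROD1 and NEUROD2. They were taken by symbol, and each matched 1 of the 83605 features of the single-nucleus RNA sequencing (snRNA-seq) count matrices. The study compared 3 control TSs with 3 TSs that aged naturally and showed Alzheimer's-like pathology (ALP), 1 hippocampal library per animal. All animals came from a single colony aged 5 to 6 years, with no genetic change or treatment named for any of them, and the ALP animals were picked for slow runs through a pipeline maze. The grouping therefore began with a behavioural choice among aged animals. The paper also reported more amyloid-β deposits, amyloid precursor protein and phosphorylated Tau in the hippocampus of ALP animals. By imaging it reported a smaller hippocampus and lower glucose uptake of the brain. The sex and exact age behind each library were not used here.

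In the dentate gyrus of adult mammals, neural progenitors can give rise to granule neurons that pass through an immature stage. The transcription factors SOX4 and SOX11 are switched on early in that passage, NEUROD1 and NEUROD2 are basic helix-loop-helix factors of excitatory neurons, DCX binds and stabilises microtubules of migrating and growing neurons, STMN1 and STMN2 are stathmins that bind tubulin dimers, TUBB3 is the neuronal β-tubulin, DPYSL3 (CRMP4) acts at the growth cone, and IGFBPL1 is a secreted protein often used to mark newborn granule neurons. Co-detection of several of these genes in 1 nucleus is the usual sign by which such a neuron is sought, but none of the genes is restricted to it.

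The files held 37603 barcodes, of which 28233 nuclei passed the study's limits of more than 200 and fewer than 2500 genes and less than 5% mitochondrial UMIs (unique molecular identifiers, 1 per captured transcript). Nuclei were clustered without the 10 genes and named from marker genes, so that a class called "Gran-like" carried dentate granule markers. This gave 2675 Gran-like, 2867 Pyra-like (pyramidal), 2443 InN-like (inhibitory), 3232 Astro-like, 2717 OPC-like (oligodendrocyte precursor), 8314 Oligo-like, 1404 Micro-like, 495 Endo-like, 169 Ependymal-like and 105 Mural-like nuclei. A further 3066 nuclei sat in shallow or haemoglobin-led clusters and 746 stayed unnamed. Of the 10 Gran markers, 9 were found in more Gran-like than other nuclei (PROX1, 39.2% against 7.81%), the exception being LCT. In InN-like nuclei, 7 of 9 markers were, while GAD2 and SLC32A1 had 0 UMIs and GAD1 was found in 3.11% of them. Libraries held 19182981 to 35898940 UMIs, with a median of 1502 to 2188 UMIs in a kept nucleus. Control library 2 stood apart, with 1614 kept nuclei, 58 of them Gran-like, and 46.4% of its barcodes over the gene limit, against 15.96% to 27.7% elsewhere. Any pair of libraries shared 4 to 18 barcodes.

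SOX4 could not be followed. Its feature (TSDBGID.20067) had 0 UMIs in all 37603 barcodes, which allows a share of up to 0.00798% of barcodes with a UMI, and up to 0.112% of the Gran-like nuclei. A count of 0 was not unusual in this annotation, since 2538 of 17268 features with a plain gene symbol (14.7%) had none. The other 9 genes summed to 20899 UMIs for STMN2, 19272 for DCX (TSDBGID.19725), 7649 for STMN1, 3592 for TUBB3, 3479 for NEUROD2, 1512 for SOX11, 1333 for NEUROD1, 501 for IGFBPL1 and 295 for DPYSL3 over all barcodes. One antisense feature to DCX held 478 UMIs, and whether counting used the strand is not given in the sources used here, so sense and antisense reads of DCX may be mixed.

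DCX was highest in inhibitory neurons, not in granule neurons. Its level, as UMIs per 1000000 (CPM) of the summed UMIs of a class, had a lowest, median and highest library of 168.9, 210.3 and 275.2 in InN-like nuclei, and a mean of 217 ± 36.2 (SD, n = 6). OPC-like nuclei followed with 98.3, 119.2 and 140.0 CPM, and Pyra-like nuclei with 78.6, 114.8 and 128.8 CPM. Gran-like nuclei came next, with 93.98, 42.5 and 67.4 CPM in control libraries 1, 2 and 3 and 72.3, 77.9 and 61.4 CPM in ALP libraries 1, 2 and 3. InN-like nuclei were thus above OPC-like nuclei, and Pyra-like above Gran-like nuclei, in 6 of 6 libraries, and both steps exceeded the spread over libraries, whereas OPC-like and Pyra-like nuclei did not differ beyond it. Of the DCX UMIs in kept nuclei, 39.3% lay in InN-like, 24.6% in Pyra-like, 11.5% in OPC-like and 11.1% in Gran-like nuclei. Kept nuclei held 5730 of the 19272 DCX UMIs, so these shares hold for them only. With no upper limit on genes, 4555 nuclei were InN-like, 7354 Pyra-like and 3398 Gran-like. Oligo-like nuclei, the reference for stray RNA here, had 14.3 ± 5.90 CPM.

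The difference between classes was tested on log2(CPM + 10) within each library by an exact two-sided sign-flip permutation test, whose smallest possible p over 6 libraries is 0.031. In total 30 contrasts were computed (10 genes, 3 contrasts each), and 18 of them had the same sign in 6 of 6 libraries. None passed 0.05 after Benjamini-Hochberg adjustment, where the smallest adjusted p was 0.0521. That adjustment counted the 3 contrasts of SOX4, which at 0 UMIs could give no difference. Counting them raised the adjusted p, so the side of 0.05 on which the 18 fall depends on it. On this scale the DCX level of Gran-like nuclei was lower by a log2 difference of -1.53 ± 0.35 (SD over libraries) than that of InN-like nuclei and by -0.64 ± 0.25 than that of Pyra-like nuclei, both in 6 of 6 libraries. Neuronal classes (Gran-like, Pyra-like and InN-like) were above glial classes (Astro-like, OPC-like, Oligo-like and Micro-like) by 1.65 ± 0.15 in 6 of 6 libraries.

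STMN2, the neuron-specific stathmin, split the neurons more sharply. Its level was 142.3, 187.8 and 227.1 CPM (lowest, median, highest library) in InN-like nuclei and 120.3, 164.5 and 283.7 CPM in Pyra-like nuclei, which did not differ from each other beyond the spread. In Gran-like nuclei it was 11.5, 15.8 and 18.9 CPM, below the mean of 20.9 ± 7.07 CPM in Oligo-like nuclei. The log2 difference of Gran-like nuclei was -2.82 ± 0.43 from Pyra-like and -2.91 ± 0.19 from InN-like nuclei, in 6 of 6 libraries each.

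Among the named classes, NEUROD1 and NEUROD2 had their highest mean in Gran-like nuclei, though for NEUROD1 a single Pyra-like cluster, given below, had a higher mean. NEUROD1 reached 9.30, 14.4 and 20.5 CPM there, against 4.87, 6.21 and 9.03 CPM in Pyra-like nuclei and 1.07 ± 0.858 CPM in InN-like nuclei, and Gran-like nuclei were above Pyra-like nuclei in 6 of 6 libraries (log2 difference 0.55 ± 0.32). NEUROD2 reached 18.9, 28.6 and 63.7 CPM in Gran-like and 19.6, 31.7 and 44.8 CPM in Pyra-like nuclei. These 2 excitatory classes overlapped, with Gran-like nuclei higher in 4 of 6 libraries (log2 difference 0.16 ± 0.44; exact sign-flip p = 0.375), and both stood above InN-like nuclei (3.30 ± 1.48 CPM) in every library.

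SOX11 was spread almost evenly over the neurons. Its mean was 11.3 ± 4.74 CPM in Gran-like, 11.1 ± 2.05 in OPC-like, 9.72 ± 2.40 in InN-like and 9.27 ± 2.98 in Pyra-like nuclei, and no neighbouring pair of classes differed beyond the spread. Neuronal exceeded glial classes by a log2 difference of 0.34 ± 0.23 in 6 of 6 libraries. Neither Gran-like contrast was past the threshold (exact sign-flip p = 0.5 against Pyra-like and p = 0.4375 against InN-like nuclei).

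The remaining members were not neuronal in the order of their levels. STMN1, the stathmin of dividing and many resting cells, was highest among the named classes in Endo-like nuclei, with 203.6, 292.8 and 385.0 CPM. Endo-like nuclei were above Oligo-like nuclei (94.5 ± 20.1 CPM) in 6 of 6 libraries, while Gran-like nuclei had 56.2 ± 19.5 CPM. TUBB3 was at 33.8 ± 11.2 CPM in InN-like, 25.7 ± 10.5 in Gran-like and 22.6 ± 4.41 in Pyra-like nuclei, with Endo-like nuclei at 35.3 ± 18.5 CPM, and no neighbouring pair of classes differed beyond the spread. Even so, neuronal were above glial classes for TUBB3 in 6 of 6 libraries (log2 difference 0.67 ± 0.14). IGFBPL1 had 40.4% of its UMIs in Astro-like and 23.99% in OPC-like nuclei, at 24.02 ± 7.18 and 14.01 ± 7.76 CPM, and was highest in the few Ependymal-like nuclei (36.1 ± 24.9 CPM). In Gran-like nuclei IGFBPL1 had 5 UMIs in all. DPYSL3 was led by OPC-like nuclei (10.4 ± 4.66 CPM) and had 3 UMIs in Gran-like nuclei. Glial classes exceeded neuronal ones for IGFBPL1 in 6 of 6 libraries (log2 difference, neuronal minus glial, of -0.79 ± 0.13).

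**Figure D1:**
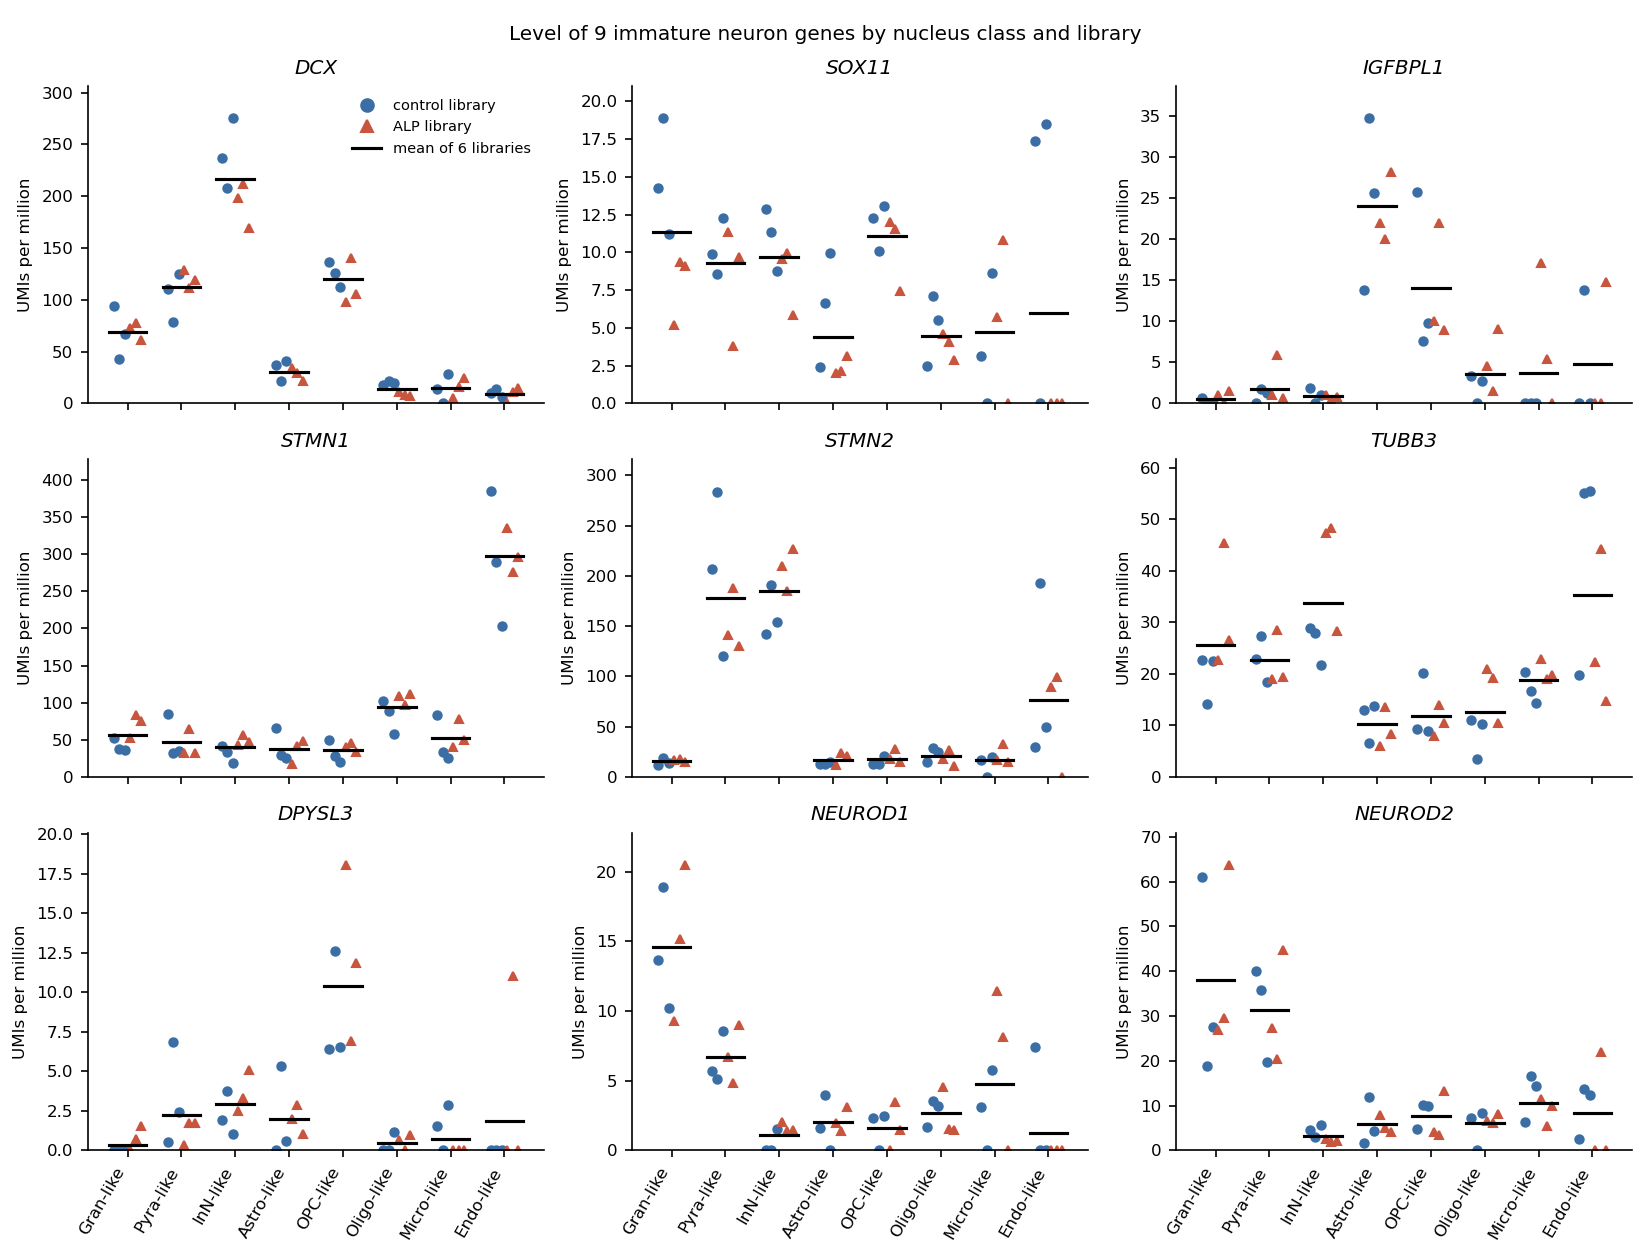
CPM (vertical axes) of the 9 detected genes in 8 nucleus classes (horizontal axis), 1 point per library, circles for control and triangles for ALP, with a bar at the mean of 6 libraries. DCX peaks in InN-like nuclei, STMN2 is near 185 in InN-like and 15.7 in Gran-like nuclei, and NEUROD1 and NEUROD2 have their highest means in Gran-like nuclei.

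The shallow nuclei, whose median was 766 UMIs, had higher mean levels of several members than any named class. These were 368 ± 164 CPM for STMN1, 226 ± 103 for STMN2, 106 ± 39.0 for TUBB3 and 28.9 ± 10.4 for SOX11. The highest means of a named class were 297.7, 184.9, 35.3 and 11.3 CPM in the same order of genes. The shallow nuclei were left out of the class order above, which ranks the named classes only.

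Within the inhibitory class, DCX was highest in the VIP and CALB2 cluster in every library, while the ranges of the other clusters overlapped, so their order was not resolved. The cluster led by VIP and CALB2 had 324 ± 45.2 CPM (n = 6 libraries), that led by LAMP5 and KIT 225 ± 78.5, the CNR1 cluster 214 ± 56.5, the SST cluster 193 ± 43.7 and the cluster led by LAMP5 that also carried LHX6 155 ± 21.6. By mean level, STMN2 ran in almost the opposite order, from 316 ± 37.8 CPM in the SST cluster to 51.2 ± 11.3 CPM in the VIP and CALB2 cluster. Among Pyra-like clusters, the one led by TSHZ2 had 35.9 ± 19.9 CPM of DCX beside 278 ± 59.3 CPM of STMN2 (n = 5), and the others had 98.2 to 149 CPM of DCX. The 2 Gran-like clusters had 67.1 ± 14.6 and 94.8 ± 17.3 CPM of DCX, and the second, of 268 nuclei, had 75.7% of its nuclei from control library 1. These are descriptions of clusters, given without a test.

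**Figure D2:**
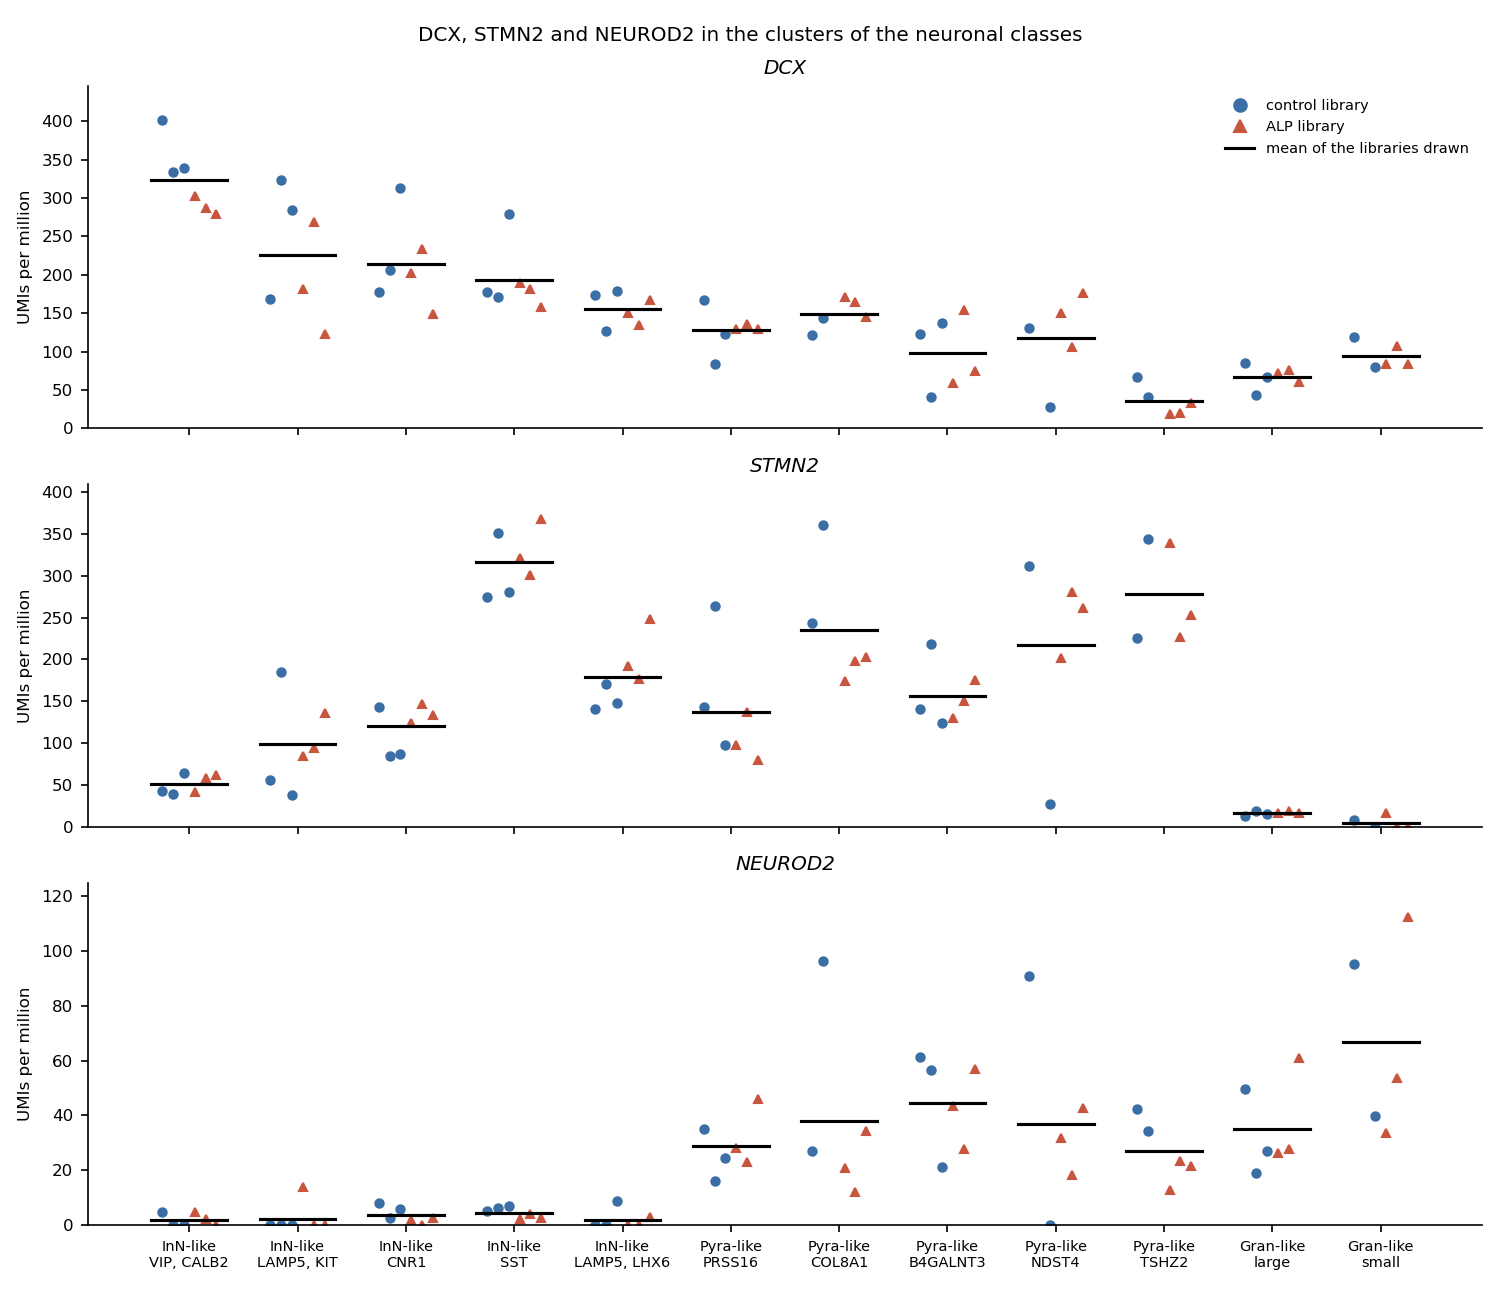
CPM (vertical axes) of DCX, STMN2 and NEUROD2 in the 12 clusters of the neuronal classes (horizontal axis, labelled by leading genes), 1 point per library with at least 10 nuclei in the cluster and a bar at their mean. DCX is highest in the VIP and CALB2 cluster (324), where STMN2 is at 51.2, and NEUROD2 is low in the InN-like clusters.

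OPC-like nuclei with and without DCX are described here without a test. DCX was found in 526 of 2717 (19.4%), of which 105 had 2 or more UMIs, with a maximum of 5. Their median depth was 1951 UMIs against 1829 in those without DCX, PDGFRA was found in 53.8% against 49.9% and PCDH15 in 99.8% against 97.0%. Of the neuronal transcripts, SNAP25 was found in 13.3% against 14.7%, SYT1 in 19.6% against 18.6%, STMN2 in 3.04% against 3.24% and SLC17A7 in 2.47% against 2.88%, while the rarely found RBFOX3 (1.71% against 0.822%) and GAD1 (0.380% against 0.137%) were more frequent with DCX, and marked doublets made up 4.94% against 6.39%. After thinning to 1000 UMIs, DCX was found in 9.22%, 10.5% and 13.2% of OPC-like nuclei (lowest, median, highest library), above Oligo-like nuclei in 6 of 6 libraries.

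Detection in single Gran-like nuclei was read beside Oligo-like nuclei, because free RNA gives UMIs in nuclei that do not make a transcript. Median depth was 2900 UMIs in Gran-like and 1337 in Oligo-like nuclei, so every nucleus was thinned to 1000 UMIs and shallower ones were left out. DCX was then found in 8.35%, 4.30% and 5.79% of Gran-like nuclei in control libraries 1 to 3 and in 6.69%, 6.91% and 5.71% in ALP libraries 1 to 3. In Oligo-like nuclei the shares were 1.63%, 1.80% and 1.83% in control and 0.868%, 0.833% and 0.670% in ALP libraries, so this background differed between groups. Unthinned, DCX was found in 17.4% of Gran-like and 1.83% of Oligo-like nuclei. For DCX in Gran-like nuclei the groups overlapped. Gran-like nuclei were above Oligo-like nuclei in 6 of 6 libraries for DCX and SOX11 (0.503% to 1.46% against 0.249% to 0.582%). The same held for TUBB3 (1.37% to 4.34% against 0.513% to 1.96%), NEUROD1 (0.843% to 2.79% against 0.111% to 0.438%) and NEUROD2 (1.88% to 5.97% against 0% to 0.934%). STMN2 was above in 2 of 6 libraries, and STMN1 and IGFBPL1 in 0 of 6, so that STMN2 and IGFBPL1 could not be told from background in Gran-like nuclei. For STMN1 the Oligo-like share is no measure of background, because the Oligo-like level of 94.5 CPM was itself above that of Astro-like (38.2 ± 17.5 CPM) and OPC-like nuclei (36.3 ± 11.01 CPM), and the Gran-like mean lay between.

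**Figure D3:**
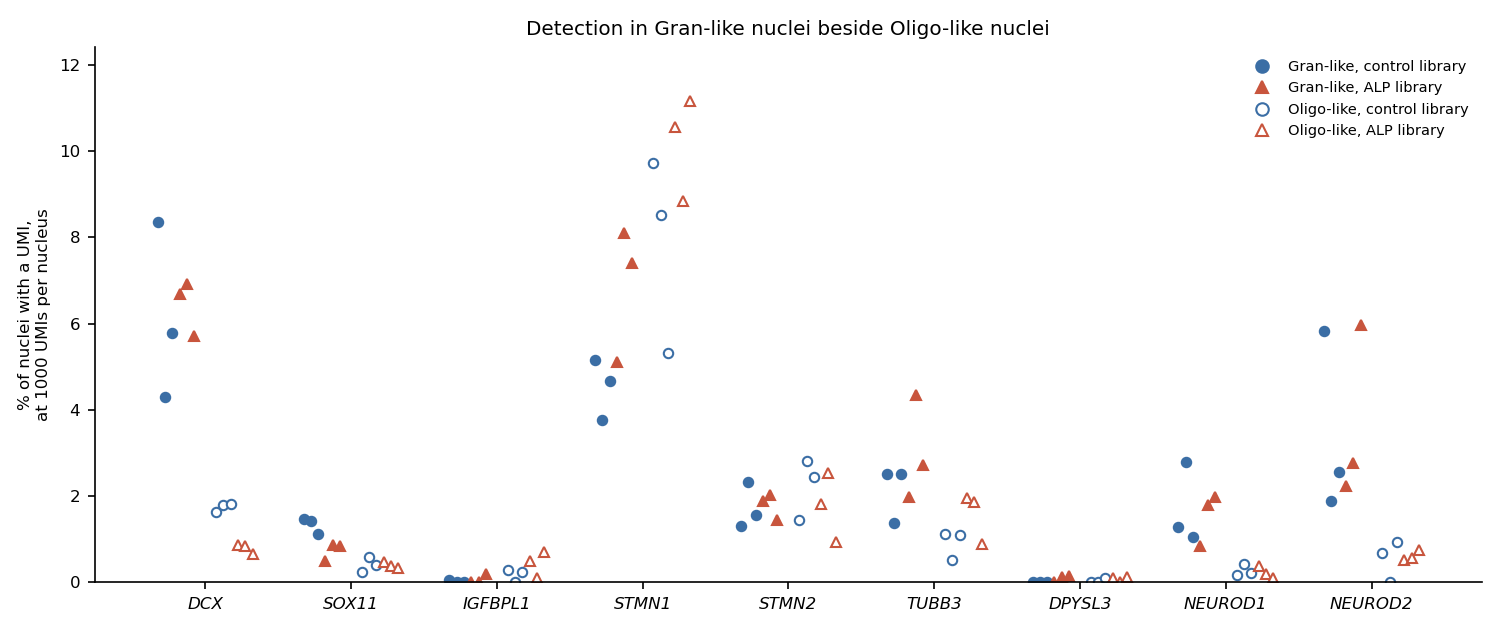
Percentage of nuclei with at least 1 UMI after thinning to 1000 UMIs per nucleus (vertical axis) for 9 genes (horizontal axis), filled symbols for Gran-like and open symbols for Oligo-like nuclei, 1 point per library. DCX lies between 4.30% and 8.35% in Gran-like and under 1.83% or at it in Oligo-like nuclei, while STMN1 lies higher in Oligo-like nuclei.

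Gran-like nuclei with DCX were compared with those without it, again without a test. The 466 nuclei with DCX were deeper than the 2209 without it (median 3442 against 2772 UMIs), 134 of them had 2 or more DCX UMIs, and the maximum was 5. PROX1 was found in 46.1% of them against 37.8%, CALB1, a marker of mature granule neurons, in 29.8% against 23.2%, and SOX11 in 3.22% against 3.08%. NEUROD2 (17.2% against 11.8%), STMN1 (18.03% against 14.7%), NEUROD1 (4.94% against 3.89%) and TUBB3 (7.73% against 7.29%) were also more frequent in the deeper nuclei with DCX, and STMN2 was less so (3.43% against 4.12%). Of the markers used to name InN-like nuclei, ADARB2 was found in 77.0% against 74.8% and GAD1 in 0.215% against 0.0905%. ADARB2 was found in 59.1% of InN-like nuclei, so it did not set them apart from Gran-like nuclei. The part of inhibitory transcripts in the DCX signal was not tested.

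Co-detection was compared with the number of Gran-like nuclei expected to hold both genes by chance, given the depth of each nucleus and the share of UMIs of each gene in its library. DCX and SOX11 were found together in 15 nuclei where 21.8 were expected (ratio 0.688, 95% Poisson interval 0.385 to 1.14). DCX met STMN1 in 84 nuclei (99.4 expected), NEUROD2 in 80 (83.6 expected), TUBB3 in 36 (48.3 expected), NEUROD1 in 23 (26.0 expected), STMN2 in 16 (25.9 expected) and IGFBPL1 in 1 (1.12 expected). By this expectation, from UMI totals, DCX met no member more often than expected. For 0 of the 45 pairs (9 of which hold SOX4 and could give no ratio) did the interval exclude a ratio of 1. These intervals cover counting error only, and no test over libraries was run, because no pair reached 5 expected nuclei in every library.

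An expectation built from detection rates within strata of depth, in place of UMI totals, gave a ratio of 0.910 (0.510 to 1.502) for DCX with SOX11, 1.12 (0.891 to 1.38) for DCX with STMN1 and 1.51 (0.993 to 2.19) for STMN1 with NEUROD1, which had the highest ratio of any pair with at least 20 nuclei under the first expectation too (27 nuclei, ratio 1.30, 0.854 to 1.88). With either expectation no interval excluded 1. The first expectation also exceeded the number of nuclei with any member at all, so its ratios run low.

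Counted per nucleus, 1286 Gran-like nuclei (48.1%) had at least 1 of the 10 genes, 356 (13.3%) at least 2, 72 (2.69%) at least 3 and 6 at least 4, against 1368, 409, 75.7 and 8.74 expected, and none had 5, where 0.610 were expected. Of the 4 genes most used for immature granule neurons (DCX, SOX4, SOX11 and IGFBPL1), 538 nuclei had at least 1 and 16 (0.598%) at least 2, where 23.0 were expected, and 0 had 3, where 0.0464 were expected with SOX4 at 0 and IGFBPL1 at 5 UMIs in the class. The same count of at least 2 was 54 in InN-like (2.21%, 66.5 expected), 49 in Pyra-like (1.71%, 54.8 expected) and 3 in Oligo-like nuclei (0.0361%, 2.37 expected). Median depth was 4277, 4260 and 1337 UMIs in these classes and 2900 in Gran-like nuclei, so the shares are not at equal depth. After thinning to 1000 UMIs, at least 2 were found in 0% to 0.131% of Gran-like and 0.0722% to 0.624% of OPC-like nuclei, by library. The 16 Gran-like nuclei comprised 15 with DCX and SOX11 and 1 with DCX and IGFBPL1, and came from 5 libraries: 9 from control library 1, 2 from control library 3, 1 each from ALP libraries 1 and 2 and 3 from ALP library 3. Their median depth was 4032 UMIs against 2892 in the rest, and PROX1 was found in 50% of them against 39.2%. ADARB2 was found in 15 of 16 (93.8%, 95% Wilson interval 71.7% to 98.9%), against 75.1% of the rest and 59.1% of InN-like nuclei.

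**Figure D4:**
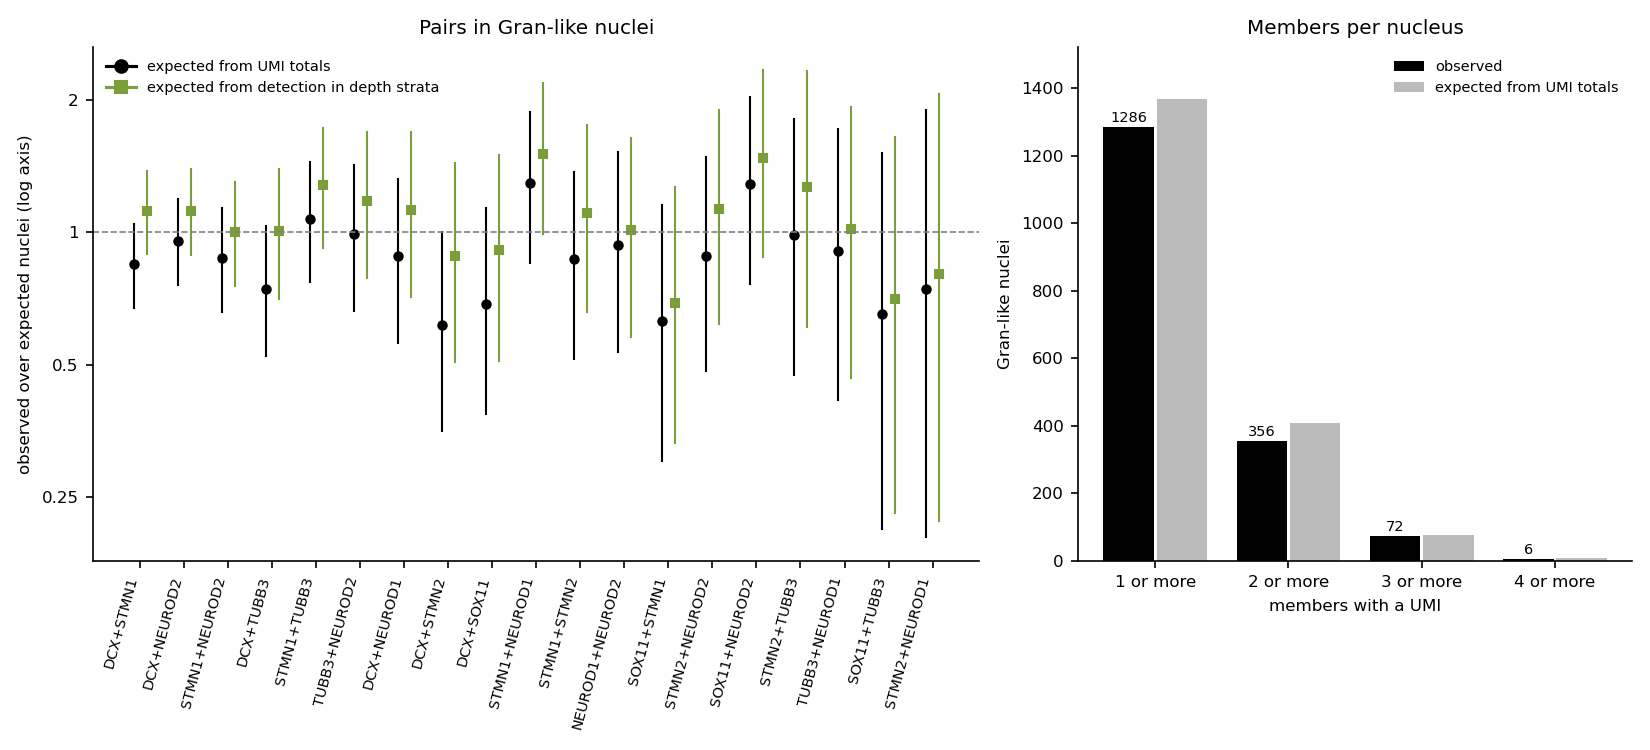
Left, observed over expected number of Gran-like nuclei with both genes of a pair (horizontal axis, with 95% Poisson intervals), by UMI totals and by depth strata. Right, number of Gran-like nuclei (vertical axis) with at least the given number of members, observed and expected. All intervals include 1, and 6 nuclei had 4 or more members where 8.74 were expected.

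The progenitor side of the lineage was thin. Among the progenitor markers reported here, MKI67 had 0 UMIs in kept nuclei, NEUROG2 was not among the features, EOMES, a marker of intermediate progenitors, had 4, TOP2A 48, NES 84 and HES6 816 UMIs. No cluster carried enough of these to be named as progenitors.

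ALP was compared with control in each class by edgeR's quasi-likelihood test on UMIs summed per library and class, with Benjamini-Hochberg adjustment over all genes tested in the class and calls at adjusted p under 0.05 and a log2 fold change beyond 0.25. None of the 49 tests of a member in a class was called by edgeR, and DESeq2 called 0 as well. Of all genes tested, the same rule called 1.56% in Gran-like (161 of 10337), 0% in InN-like (0 of 11942), 0% in Pyra-like, 0.187% in Astro-like, 1.62% in OPC-like, 4.89% in Oligo-like, 0.717% in Micro-like, 0% in Endo-like and 0.0327% in shallow nuclei, and 0% in all kept nuclei summed. At an unadjusted p under 0.05 there were 1 of 7 members tested in Gran-like, 3 of 5 in InN-like, 2 of 5 in Oligo-like and 1 of 6 in shallow nuclei. Of all genes tested there were 1873 of 10337 in Gran-like, 2343 of 11942 in InN-like, 2540 of 11590 in Oligo-like and 472 of 6120 in shallow nuclei. The shares over all genes depended on the tool, since DESeq2 called 2.14% in Gran-like, 3.9% in InN-like (466 genes), 2.28% in Pyra-like (304) and 4.11% in Oligo-like nuclei and 7.65% (1740) in all nuclei summed. They also depended on single libraries. In Gran-like nuclei edgeR called 518 genes without control library 1, 363 without control library 2, 19 without control library 3, 38 without ALP library 2 and 0 without ALP library 1 or 3, and 0 with the replicate number as a block. In Oligo-like nuclei it called 1 without ALP library 1 or 3, 7 without control library 3 and 1056 without ALP library 2, and in InN-like nuclei 498 without control library 1 and 430 without control library 2. Without control library 2 it called 2.46% of genes in shallow nuclei and 9.2% in all nuclei summed, each with 1 member among them (STMN1 and STMN2). In such sums, fewer nuclei of a subtype and less RNA per nucleus cannot be told apart. The p-values set the difference between groups against the spread between animals' libraries within the groups.

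In Gran-like nuclei, the stathmin STMN1, found there in no larger share of nuclei than in Oligo-like nuclei, had the smallest p. Its level was 52.4, 37.8 and 35.8 CPM in control libraries and 52.7, 83.7 and 75.1 CPM in ALP libraries. All ALP libraries lay above the control libraries, though ALP library 1 and control library 1 were almost equal, and the log2 fold change was 0.74 (SE 0.24) with an adjusted p of 0.129 by edgeR's quasi-likelihood test. TUBB3 was at 22.6, 14.2 and 22.5 CPM in control and 22.7, 45.4 and 26.5 CPM in ALP libraries (log2 fold change 0.62, SE 0.31, edgeR adjusted p = 0.332). These were the 2 of 6 members with at least 100 UMIs in the class whose groups did not overlap, both higher in ALP libraries, where 9.44% of all such features were higher and 12.2% lower without overlap. The count rested on the small Gran-like cluster drawn mostly from control library 1. Without that cluster, an alternative chosen after seeing the data, STMN1 was at 58.75 CPM in control library 1 and 56.2 CPM in ALP library 1, TUBB3 was at 24.8 and 24.2 CPM in the same libraries, and 0 of 5 members were free of overlap, where 9.48% of features were higher and 12.3% lower.

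DCX in Gran-like nuclei had a log2 fold change of -0.03 (SE 0.23, edgeR adjusted p = 0.981) and its groups overlapped fully. SOX11 was at 14.3, 18.9 and 11.2 CPM in control and 5.17, 9.38 and 9.10 CPM in ALP libraries, with all ALP libraries lower (log2 fold change -0.71, SE 0.39, edgeR adjusted p = 0.370). Its 91 UMIs in all kept it out of the count above, which asked for at least 100. Of features with at least 100 UMIs in the class, 12.2% were lower and 9.44% higher in ALP libraries without overlap. NEUROD1, NEUROD2 and STMN2 had log2 fold changes of 0.27, 0.0013 and 0.37, with edgeR adjusted p of 0.786, 0.999 and 0.627. SOX4, IGFBPL1 and DPYSL3 had too few UMIs to be tested.

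The share of Gran-like nuclei with a UMI, after thinning, was compared in the same way. SOX11 was found in 1.33% ± 0.188 (SD, n = 3) of control and 0.738% ± 0.204 (n = 3) of ALP Gran-like nuclei, a difference of -0.596 percentage points with an exact permutation p of 0.1, the smallest that 3 against 3 libraries allow, and an adjusted p of 1 over the 10 members. SOX11 was the only member whose groups did not overlap, and of all features with a UMI 6.48% were lower and 3.93% higher in ALP libraries without overlap. DCX was found in 6.15% ± 2.05 of control and 6.44% ± 0.641 of ALP nuclei (exact permutation p = 1), and STMN1 in 4.53% ± 0.710 and 6.87% ± 1.57 (exact permutation p = 0.2). Nuclei with at least 2 of DCX, SOX4, SOX11 and IGFBPL1 made up 0.0555% ± 0.0675 in control and 0.0466% ± 0.0481 in ALP libraries (exact permutation p = 0.8), which at 58 to 983 Gran-like nuclei per library leaves a difference undetectable at this depth.

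In InN-like nuclei, STMN1, STMN2 and TUBB3 had positive fold changes, and the other 2 of the 5 members tested, DCX among them, had negative ones. TUBB3 was at 28.97, 27.9 and 21.6 CPM in control and 47.3, 48.3 and 28.4 CPM in ALP libraries, which overlapped by 1 library (log2 fold change 0.83, SE 0.24, edgeR adjusted p = 0.100). STMN1 was at 41.8, 33.2 and 19.1 CPM in control and 43.3, 55.9 and 46.6 CPM in ALP libraries (0.80, SE 0.26, edgeR adjusted p = 0.134), without overlap, the only 1 of 5 members so, where 6.33% of features were higher and 18.6% lower in ALP without overlap. STMN2 was at 142.3, 190.9 and 154.1 CPM in control and 210.0, 184.7 and 227.1 CPM in ALP libraries, with control library 2 above the lowest ALP library (0.51, SE 0.17, edgeR adjusted p = 0.148). DCX was at 236.9, 208.3 and 275.2 CPM in control and 198.4, 212.2 and 168.9 CPM in ALP libraries, which overlapped (-0.16, SE 0.14, edgeR adjusted p = 0.571). With no filter on low counts, STMN1, STMN2 and TUBB3 were called in InN-like nuclei (edgeR adjusted p = 0.0147, 0.0288 and 0.0183), a setting in which 3.49% of all InN-like features were called.

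**Figure D5:**
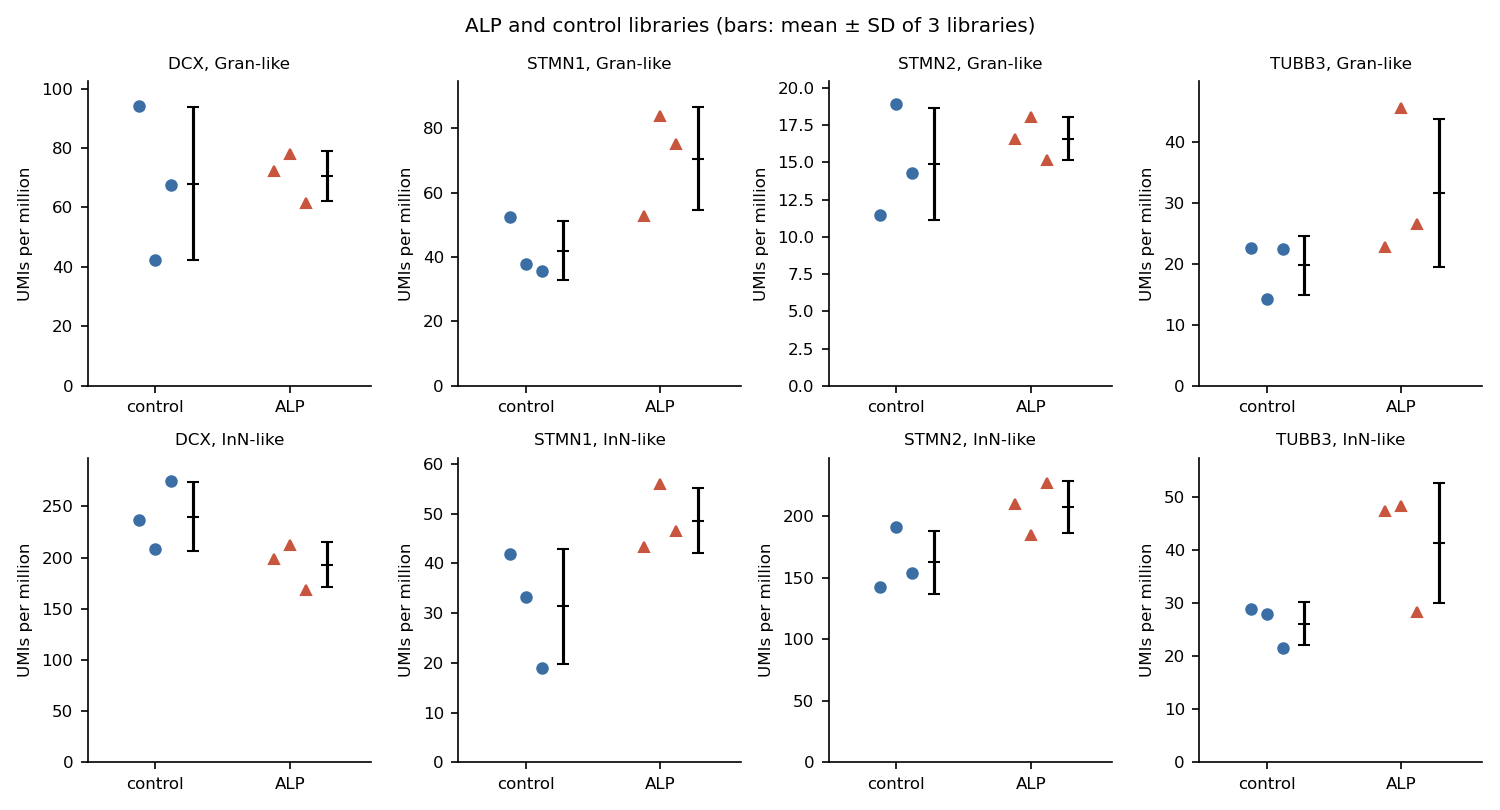
CPM (vertical axes) of DCX, STMN1, STMN2 and TUBB3 in Gran-like and InN-like nuclei of 3 control and 3 ALP libraries (horizontal axes), 1 point per library, with the mean. STMN1 has all 3 ALP libraries above the control libraries in both classes, in Gran-like nuclei only while the small cluster drawn mostly from control library 1 is kept, and DCX overlaps in both.

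Within the InN-like class, the VIP and CALB2 cluster had 402, 334 and 339 CPM of DCX in control and 303, 287 and 279 CPM in ALP libraries. All ALP libraries were lower, on 41 to 168 UMIs per library, where of features with at least 100 UMIs in that cluster 10.2% were lower and 8.36% higher without overlap. The cluster held 15.4% to 27.9% of a library's InN-like nuclei. It was singled out after its values were seen, and the difference was not tested.

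Outside the neurons, DCX in Oligo-like nuclei was at 17.7, 21.4 and 19.4 CPM in control and 11.1, 8.62 and 7.65 CPM in ALP libraries, without overlap, where 12.8% of features were lower and 10.1% higher in ALP without overlap (log2 fold change -0.97, SE 0.31, edgeR adjusted p = 0.0953). DCX in this class had the smallest adjusted p of any member. Oligo-like nuclei served above as the reference for stray RNA, and DCX was found in 1.83% of them. Whether its UMIs there came from free RNA was not tested. In OPC-like nuclei, with their far higher DCX level, the log2 fold change was -0.07 (SE 0.18, edgeR adjusted p = 0.901), and in Pyra-like nuclei 0.42 (SE 0.21, edgeR adjusted p = 0.343). In Astro-like nuclei, which held the highest share of IGFBPL1 UMIs of any class, its log2 fold change was 0.08 (SE 0.38, edgeR adjusted p = 0.942).

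Whether the ALP effect differed between Gran-like and InN-like nuclei was tested as an interaction with library as a block. It was called for 0 of 7 members tested by edgeR, against 0.143% of all genes (20 of 13970), and 0 members had an unadjusted p under 0.05. The smallest p belonged to NEUROD2 (log2 difference of effects 0.95, SE 0.57, edgeR adjusted p = 0.845).

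Related genes were followed through fixed lists. Of 25 other immature neuron and neurite genes, 17 were tested in Gran-like and 18 in InN-like nuclei, and 0 were called in either by edgeR. In each class 4 had an unadjusted p under 0.05, against 1873 of 10337 genes tested in Gran-like and 2343 of 11942 in InN-like nuclei. The median log2 fold change of the listed genes was 0.08 in Gran-like and -0.0029 in InN-like nuclei, against 0.01 for all genes tested in both. The 2 with the smallest p in Gran-like nuclei were STMN3, a further stathmin (0.63, SE 0.20, edgeR adjusted p = 0.113), and ELAVL3, a neuronal RNA-binding protein (-0.61, SE 0.25, edgeR adjusted p = 0.219). In InN-like nuclei they were TUBB2A, another β-tubulin (0.93, SE 0.15, edgeR adjusted p = 0.0520), and ELAVL2 (0.62, SE 0.13, edgeR adjusted p = 0.0523). Of 10 genes of mature granule and excitatory neurons, 8 were tested in each class and 0 called, with CALB1 (0.49, SE 0.19, edgeR adjusted p = 0.190) and SNAP25, a synaptic fusion protein (0.30, SE 0.15, edgeR adjusted p = 0.328), first in Gran-like nuclei, and SNAP25 (0.44, SE 0.12, edgeR adjusted p = 0.0811) and the NMDA receptor gene GRIN2A (0.37, SE 0.16, edgeR adjusted p = 0.225) first in InN-like nuclei. Of 10 progenitor and proliferation genes, 2 were tested in Gran-like and 5 in InN-like nuclei, with 0 called and 0 at an unadjusted p under 0.05 by edgeR. The smallest p were those of SOX2 (0.51, SE 0.42, edgeR adjusted p = 0.584) and HOPX (-0.39, edgeR adjusted p = 0.704) in Gran-like nuclei, and of HES5 (0.84, SE 0.45, edgeR adjusted p = 0.336) and SOX2 (0.29, SE 0.22, edgeR adjusted p = 0.509) in InN-like nuclei.

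Finally, the genes whose pattern was most like that of DCX, SOX11 and STMN2 were sought over the 60 sums of 6 libraries and 10 named classes, which share libraries and depth. Among 8663 genes, DCX was most like GRIP1 (Pearson's r = 0.855), FGF12 (0.852) and CNTNAP4 (0.850). SOX11 was most like ZNF677 (0.684), AKAP1 (0.679) and PPIP5K1 (0.662), and STMN2 most like LIN28B (0.803), TRPC4 (0.802) and KIAA1217 (0.794). Among the members themselves, DCX correlated with SOX11 at 0.527 and with STMN2 at 0.500, and with STMN1 at -0.292. These are descriptions, and NEUROD1 had too few UMIs over these sums to be compared.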

How the data were processed

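Nuclei of 6 hippocampi (3 control, 3 ALP), 1 library per animal, were profiled with the 10x Genomics 3′ v3.1 chemistry. The authors deposited raw UMI counts per feature and barcode, made with Cell Ranger (3.1.0 in the submitters' processing notes; the file headers name another version) against a TreeshrewDB genome. The build and the use of strand and intronic reads are not given in the sources used here. Barcodes with more than 200 and fewer than 2500 genes and less than 5% mitochondrial UMIs were kept. The kept libraries held 1614 to 7022 nuclei, and 21.1% to 54.3% of all UMIs. Intervals and floors cover counting error only.

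Computed here: 2000 variable genes (the 10 members left out), 30 principal components, 20 neighbours and Leiden clustering at resolution 2 (scanpy 1.11.5). A cluster was named where at least 3 markers of a class were found in 3% or more of its nuclei, at 1.5 times or more their level in the rest. These markers did not have to be among its leading genes. Thresholds of this naming were set after the data were seen. A simulated-doublet score marked 0.8% of barcodes per 1000 as doublets, and marked nuclei were kept, except that clusters of at least 15% doublets stayed unnamed. UMIs were summed per library and class (at least 10 nuclei) and tested with edgeR 4.0.16 (TMM, filterByExpr with a minimum count of 10, quasi-likelihood, Benjamini-Hochberg), with DESeq2 1.42.0 as an alternative. On simulated counts with 10337 genes for the Gran-like comparison, the edgeR step recovered 36% of genes changed by 1 log2 unit and 91% of those changed by 2. The simulation gave every gene the same fixed spread between libraries, not that of these animals. These figures are therefore not the power of the real comparison. Class contrasts and shares used exact permutation tests over libraries, and co-detection was given with Poisson intervals and no test. A pseudocount of 10 CPM was used on the log scale, which understates the change of low genes.

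Same-numbered control and ALP libraries did not deviate together (correlations of deviations in Gran-like nuclei of -0.0519, 0.0653 and -0.124), so the numbers were not taken as pairs. The 10 members and the gene lists were chosen with earlier results of these data known. All 10 members are named, with the 3 genes most like DCX, SOX11 and STMN2 (at least 300 UMIs over the sums) and, from each related list, the called genes or otherwise the 2 with the smallest p. Alternatives covered normalization, filters, the gene limit, doublets, clustering, thinning, a replicate block and each library left out. Those that drop the Gran-like cluster dominated by 1 library, or drop the gene limit and marked doublets together, were chosen after seeing the data. The study's mixed model over single nuclei was not rebuilt, because the sex of each animal was not used here.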

Additional observations from a re-analysis of the deposited data

Results flagged for a closer look

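Outside the features of the 10 members, 11 intergenic features that the annotation names after SOX4 held 1856 UMIs over all barcodes, while SOX4 itself had 0. In kept nuclei they had 819 UMIs and were found in 9.53% of Gran-like nuclei, at 31.3 ± 11.8 CPM (SD, n = 6), against 13.4 ± 11.3 CPM in Pyra-like, 11.6 ± 5.11 in InN-like and 5.18 ± 1.57 in Oligo-like nuclei. Whether they hold reads of SOX4 was not tested.

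When nuclei over the gene limit were kept, 3398 nuclei were Gran-like, and 26 of them had 5 or more members, the number expected from their depth being 26.0. The same expectation ran high for nuclei with any member (2048 against 1853 found). None of the nuclei under the limit had 5, where 0.610 were expected. The 26 had a median of 19450 UMIs, and 16 came from ALP library 2 and 9 from control library 1. Of 75 such nuclei with 4 or more members, 89.1 were expected. PROX1 was found in 88.5% and ADARB2 in 96.2% of the 26 nuclei, and 1 was marked as a doublet.

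An unnamed cluster of 47 nuclei led by LHX1, NHLH1 and RELN had STMN2 in 53.2% of its nuclei (25 of 47), STMN1 in 29.8%, DCX in 23.4%, TUBB3 in 14.9% and SOX11 in 10.6%. It had too few markers of any class to be named, 57.4% of its nuclei came from control library 3 and 12.8% were marked as doublets. Control groups and ALP groups had 3 libraries each, so no library was tested as standing apart from its group.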

How the results depend on the processing

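Depth limits most values: SOX4, IGFBPL1 and DPYSL3 had under 6 UMIs in Gran-like nuclei, control library 2 gave 58 of them, and 3 libraries per group cannot give an exact p under 0.1. Of 1035 alternative values of 83 results, 924 of single members and 62 of summaries were counted as unchanged. For fold changes and differences of effects this meant the same sign and the same side of the threshold. Class contrasts that differed in sign between libraries were not checked for direction. A difference of shares counted as unchanged within the larger group SD, a co-detection ratio within its interval and a count within a fixed fold. Some values that turned sign were therefore counted as unchanged. The count of members called between ALP and control (0 of 49) was 3 with no filter on low counts (STMN1, STMN2 and TUBB3 in InN-like nuclei, where 1434 of 41119 features were called) and 0 to 2 when 1 library was left out, with 2 without control library 2 (STMN1 in shallow nuclei, where 172 of 6988 genes were called, and STMN2 in all nuclei summed, where 2245 of 24392 were). With the replicate number as a block it was 0. The count of members whose thinned shares did not overlap (1, SOX11) was 2 when thinned to 500 UMIs, 2 with marked doublets removed and 1 to 4 with 1 library left out. The share over all features was not computed for these settings, and groups separate more readily when a library is left out. These counts are therefore no result about the members. The difference in nuclei with at least 2 of the 4 immature genes was -0.156 percentage points without thinning, and its sign turned without control library 1 (0.0287), ALP library 1 (0.0018) or ALP library 2 (0.0080), with a lowest value of -0.0366 without control library 2. The count of pairs whose co-detection interval excluded 1 (0) was 5 with no upper limit on genes and 5 with doublets removed as well, all with fewer nuclei than expected, and 0 to 1 with 1 library left out. With no upper limit, the expectation from UMI totals also exceeded the number of nuclei with any member (2048 against 1853 found). Its ratios therefore run low there too. The causes of these changes were not tested.

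The log2 fold change of DCX in Gran-like nuclei, near 0, turned positive with no filter (0.0395), with the replicate block (0.0527), at clustering resolution 1 (0.0066) and without the cluster dominated by control library 1 (0.0328), and ran from -0.15 to 0.30 with 1 library left out. That of NEUROD2 was -0.0102 at resolution 1 and ran from -0.50 to 0.75, and that of NEUROD1 ran from -0.0296 to 0.52. With no upper limit on genes, the difference of the ALP effect between Gran-like and InN-like nuclei changed sign for NEUROD1 (0.0114), STMN1 (0.58), NEUROD2 (-0.39) and TUBB3 (0.36), and with 1 library left out it ran from -0.21 to 0.14 for STMN1, -0.41 to 0.0769 for TUBB3 and -0.0399 to 0.55 for DCX. None of these values was past the threshold, so their signs carry no call.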
